A study of Rattus norvegicus with 14 samples.

Results

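The genes described here are 5 chemokine genes of the rat, Ccl2, Cxcl1, Cxcl10, Cxcl12 and Cxcl13, taken by their symbols in the probe annotation together with all of their probe sets. They were represented by 7 of the 31099 probe sets of the array, 3 for Cxcl12 and 1 for each other gene, among 14218 named genes in all. Every one of the 7 was tested, since each reached a signal of 100 on at least 2 of the 14 arrays, as 17515 probe sets did. Cxcl13 reached it on the arrays named with the suffix b alone, DMSO arrays among them. The cells were IEC-6, a non-transformed line of crypt epithelium from rat small intestine, and the study set drugs that hinder the migration of such cells beside one that does not. The groups were 100 µM indomethacin (2 arrays), 100 µM NS-398 (4 arrays), 1 µM SC-560 (4 arrays) and the solvent DMSO (4 arrays), each applied for 72 h. Indomethacin inhibits both cyclooxygenases, NS-398 mainly the inducible one and SC-560 mainly the constitutive one. Per the labels, RNA went through 2 rounds of amplification before hybridisation, and per the series' design text the cultures were pooled, so that p-values measure a spread between arrays that may be technical.

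Array names carried a digit, 1 or 2, and on 8 of the arrays the suffix b. The arrays with the suffix are called set b here and the 6 others the set without suffix. The labels do not say what the suffix stands for. Both indomethacin arrays belonged to set b, so indomethacin was compared only there, and NS-398 was compared with DMSO within each set.

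Chemokines are small secreted proteins that bind receptors on passing cells and draw them along a concentration gradient. Many are made by epithelial and stromal cells of the gut after inflammatory signals, with NF-kB as a common activator of their genes and interferons as another, while some are made without such a signal. Ccl2 attracts monocytes through the receptor Ccr2, Cxcl1 attracts neutrophils through Cxcr2, and Cxcl10 attracts activated T cells through Cxcr3. Cxcl12, a product of stromal cells above all, acts through Cxcr4 and is also bound by the scavenging receptor Ackr3, and Cxcl13 guides B cells into lymphoid follicles through Cxcr5.

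The promoters of 4 of the 5 genes are shown because the genes responded differently to the drugs and because elements for NF-kB and interferon factors are classical features of such promoters. The sequences are from RefSeq, assembly GRCr8, and run 5′ to 3′ along the gene from 250 bases before to 50 bases after its start. They lie at chr14:17479272-17479571 (minus strand) for Cxcl1, chr14:15988816-15989115 (plus strand) for Cxcl10, chr4:152060531-152060830 (plus strand) for Cxcl12 and chr14:13917871-13918170 (minus strand) for Cxcl13. Capitals mark matches, on either strand, to a kappa B-like motif (GGNNTTTCC), an interferon-response-like motif (GAAANNGAA) or a TATA box (TATAAA).
Cxcl1: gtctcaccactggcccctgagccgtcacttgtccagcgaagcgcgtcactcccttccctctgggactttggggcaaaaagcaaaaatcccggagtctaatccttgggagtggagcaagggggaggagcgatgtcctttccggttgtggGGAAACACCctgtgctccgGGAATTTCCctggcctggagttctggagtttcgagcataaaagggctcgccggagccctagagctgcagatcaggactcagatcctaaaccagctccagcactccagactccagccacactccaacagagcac
Cxcl10: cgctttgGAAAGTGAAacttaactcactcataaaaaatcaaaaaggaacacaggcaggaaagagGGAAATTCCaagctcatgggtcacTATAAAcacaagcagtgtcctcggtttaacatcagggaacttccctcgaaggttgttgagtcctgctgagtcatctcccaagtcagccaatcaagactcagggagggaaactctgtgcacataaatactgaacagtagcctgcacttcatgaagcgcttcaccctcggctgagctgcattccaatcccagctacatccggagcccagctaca
Cxcl12: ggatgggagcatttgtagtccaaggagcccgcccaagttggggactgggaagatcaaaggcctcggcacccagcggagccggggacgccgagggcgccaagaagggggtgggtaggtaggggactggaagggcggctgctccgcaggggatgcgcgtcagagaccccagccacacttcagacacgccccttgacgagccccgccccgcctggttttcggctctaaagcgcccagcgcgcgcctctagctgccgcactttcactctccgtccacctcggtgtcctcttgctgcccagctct
Cxcl13: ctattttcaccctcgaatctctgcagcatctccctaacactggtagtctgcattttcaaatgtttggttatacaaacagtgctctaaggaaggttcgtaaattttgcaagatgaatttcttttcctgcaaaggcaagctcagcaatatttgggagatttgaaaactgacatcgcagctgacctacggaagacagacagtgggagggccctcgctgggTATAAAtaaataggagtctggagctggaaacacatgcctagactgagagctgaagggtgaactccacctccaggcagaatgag
The Cxcl1 window held 2 kappa B-like matches, one on the gene's strand 83 to 75 bases upstream of the start and one on the opposite strand 102 to 94 bases upstream. The Cxcl10 window held 1 kappa B-like match on the opposite strand (186 to 178 bases upstream), 1 interferon-response-like match (243 to 235) and 1 match to the letters TATAAA (162 to 157). Other forms of these motifs were not searched. The Cxcl13 window held a TATA box 33 to 28 bases upstream, and the Cxcl12 window held none of the 3 motifs. No 2 of these matches overlapped. Among 33469 promoters of the same length, 6.05% held the kappa B-like motif, 9.713% the interferon-response-like motif and 14.22% the TATA box. A match describes the letters of the window and is no evidence of binding.

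The arrays had median signals between 97.8 and 118. The sets differed: the beta-actin control, read as 3′ over 5′ probe signal to judge RNA quality and labelling, was at 1.22 to 1.34 in set b and 1.498 to 1.64 in the set without suffix. Epithelial identity was checked with 10 marker genes, of which Epcam, Krt18, Cldn3 and Cldn4 stayed under 100 on all arrays, while Cdh1, which encodes E-cadherin, was at 2637 to 3671 in set b and 7680 to 8412 in the set without suffix. Cdx2, a transcription factor that defines intestinal epithelium, was at 3072 to 5314 in set b but only at 55.0 to 124 in the set without suffix. Of 12 fibroblast and smooth muscle markers, Thy1, Fap and Pdgfrb stayed under 100 on all arrays, while collagen genes were bright, with Col1a1 at 19228 to 24195 in set b and 10473 to 13537 in the set without suffix. Dcn, which encodes the matrix proteoglycan decorin, ran the other way between the sets, at 1000 to 2559 in set b and 4215 to 9486 in the set without suffix. The summed signal of the 10 epithelial markers was 23275 to 23635 with indomethacin, 20383 to 21698 with NS-398 and 19854 to 20348 with DMSO in set b, while that of 12 fibroblast and smooth muscle markers overlapped between these groups, at 90876 to 94369, 91947 to 96844 and 91163 to 94409. That sum came mostly from collagens and Vim, and single members changed: of 9 tested, 2 fell with indomethacin in set b, Tagln, a smooth muscle actin-binding protein (log2 change -1.88), and Dcn (-0.66). With NS-398, 3 rose and 2 fell in set b, among them Dcn (0.62) and Tagln (-1.62), and in the set without suffix 2 rose, Dcn (0.97) and Pdgfra (1.34, from signals under 100 with DMSO), and 3 collagen genes fell. Of 6 epithelial markers tested, Krt8 and Cdx2 rose with indomethacin in set b, Cdx2 and Krt19 rose and Krt8 fell with NS-398 in set b, and Krt8 fell with NS-398 in the set without suffix. Of all probe sets, 7.10% were called with indomethacin in set b, 14.7% with NS-398 in set b and 11.9% with NS-398 in the set without suffix. Of 6 endothelial markers Pecam1, Vwf and Tie1 stayed under 100 on all arrays, while Tek was at 677 to 801 in set b and 182 to 224 in the set without suffix, Flt1 at 215 to 386 in set b, and Kdr at 88.7 to 164 in the set without suffix. Of 11 immune cell markers, 8 stayed under 100 on all arrays, and the pan-leukocyte marker Ptprc did not exceed 32.8. The summed signal of the 11 was 4103 to 4502 with indomethacin, 3978 to 4179 with NS-398 and 3481 to 3703 with DMSO in set b, with most of it from Cd14, which rose with indomethacin (0.27). The part of these differences in the results below was not tested.

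Under indomethacin, 6 of the 7 chemokine probe sets changed in set b, against 7.10% of all probe sets tested. The monocyte attractant Ccl2, the neutrophil attractant Cxcl1 and 2 of the 3 Cxcl12 probe sets fell, while Cxcl10 and Cxcl13 rose. The mean signals of Ccl2 and Cxcl1 with indomethacin were 0.508 and 0.521 of those with DMSO, and those of Cxcl10 and Cxcl13 were 2.01 and 2.60 times those with DMSO. The median log2 change of the 7 was -0.36, beside -0.004 for all probe sets. Probe sets were called at a limma adjusted p under 0.05, and log2 changes are on the scale of log2(signal + 50), which makes changes of dim probe sets look smaller.

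Ccl2 was measured at signals of 263 and 281 in the indomethacin group, against 577 and 494 on the DMSO arrays of set b. The highest indomethacin array was thus below the lowest DMSO array. Between these groups 53.1% of all probe sets had no overlap, in either direction, which applies to the genes below as well. The log2 change was -0.86 ± 0.12 (standard error, limma adjusted p 0.000474). As these are bulk RNA samples, fewer cells making a transcript and less of it per cell cannot be told apart here or below.

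Cxcl1 was at 3149 and 3113 with indomethacin, against 5626 and 6394 with DMSO in set b. Both indomethacin values were well under both DMSO values. The log2 change was -0.93 ± 0.12 (limma adjusted p 0.000168). The calls for Ccl2 and Cxcl1 held when any 1 array of the groups compared was left out, which is how single arrays are left out below.

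Cxcl10 was a dim probe set, with 292 and 232 on the indomethacin arrays, against 94.99 and 165 on the DMSO arrays of set b. The groups did not overlap, but the DMSO arrays lay further from each other than the higher of them lay from the lower indomethacin array. The log2 change was 0.81 ± 0.20 (limma adjusted p 0.0221). The limma adjusted p was 0.274 when DMSO array 1b was left out, 0.168 or 0.0537 when indomethacin array 1b or 2b was, and 0.0652 with no filter on low signals.

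Cxcl13 had 492 and 495 on the indomethacin arrays, against 152 and 227 on the DMSO arrays of set b. The indomethacin arrays lay close together and far above the DMSO arrays. The log2 change was 1.20 ± 0.18 (limma adjusted p 0.000928), and it stayed called when any 1 array was left out. In a model that assumes 1 drug effect and 1 difference between the sets for all arrays, it was 0.62 ± 0.56 (limma adjusted p 0.640). Indomethacin arrays were in set b alone, so this value cannot test whether the effect was alike in both sets. The model also assumes 1 NS-398 effect on Cxcl13, while its signals without the suffix were all under 100, as given below.

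Of the Cxcl12 probe sets, 1388583_at had 357 and 349 with indomethacin, against 489 and 599.97 with DMSO in set b. Its log2 change was -0.55 ± 0.11 (limma adjusted p 0.00692), and the call was lost without DMSO array 2b (0.0824) or indomethacin array 2b (0.0540). The brightest one, 1369633_at, had 805 and 795 with indomethacin, against 954 and 1042 with DMSO. In both probe sets every indomethacin array was below every DMSO array, and 53.1% of all probe sets had no overlap, in either direction, between these groups. The change of 1369633_at was small (-0.30 ± 0.09, limma adjusted p 0.0456), and its call was lost with any 1 array left out (0.100 to 0.241) and under 7 of 8 other settings. The remaining one, 1387655_at, had 196 and 221 with indomethacin, against 247 and 318 with DMSO, and did not pass (log2 change -0.36, 95% interval -0.66 to -0.06, limma adjusted p 0.152). All 3 thus pointed down, and how many passed depended on the arrays and settings used. The stromal marker Dcn lay the same way, at a mean of 1017 with indomethacin, against 1671 with DMSO. Of 9 fibroblast and smooth muscle markers tested, Dcn and Tagln fell and 7 were not called, beside 7.10% of all probe sets called. The part of Dcn in the Cxcl12 values was not tested.

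**Figure D1:**
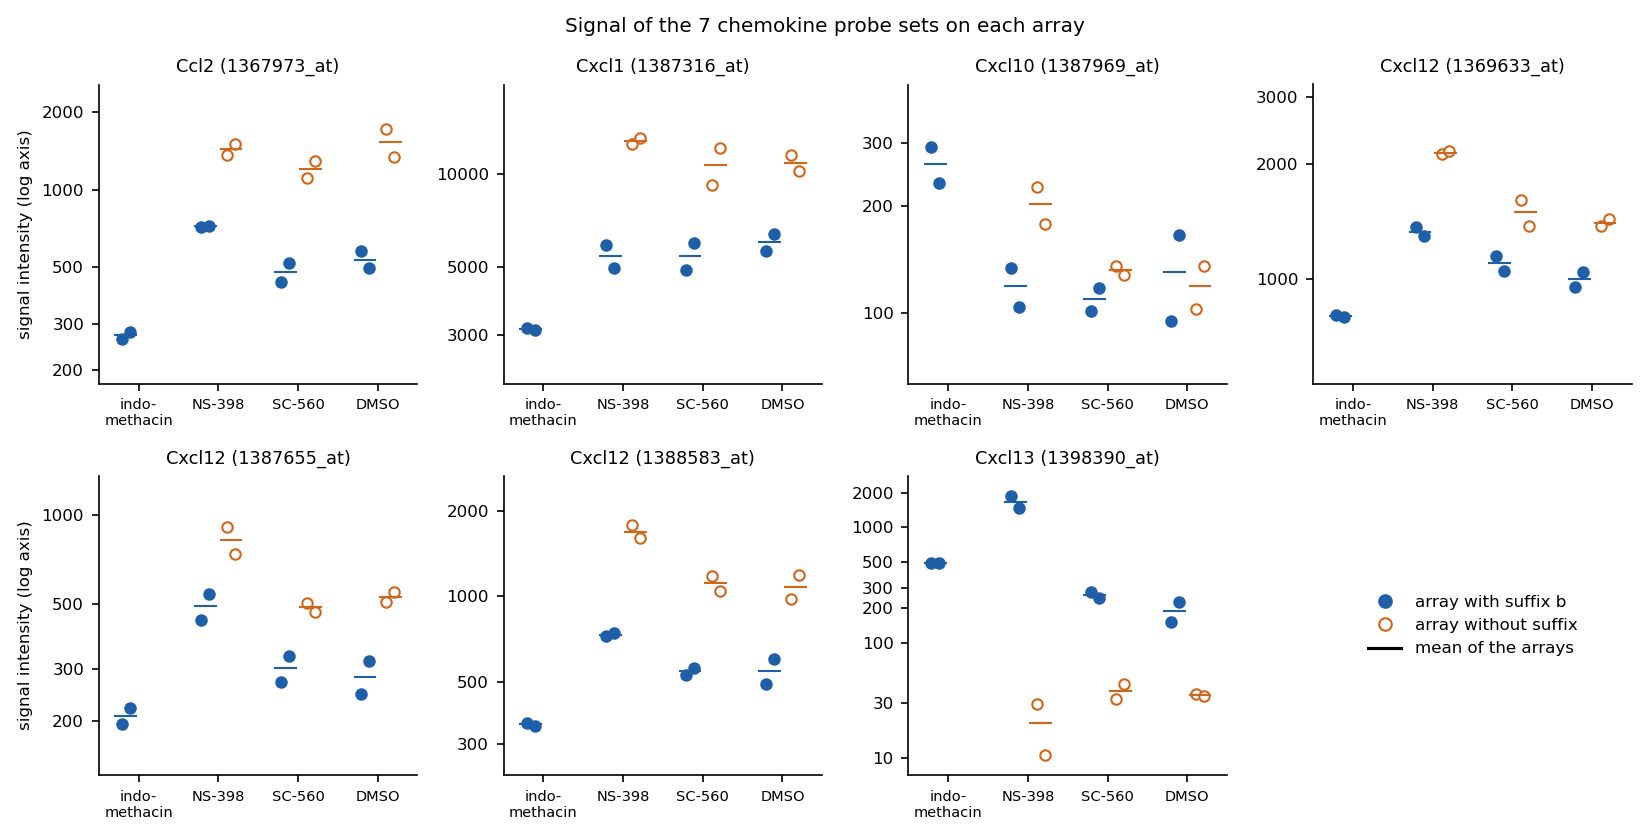
Signal intensity (log axis) of the 7 chemokine probe sets on each of the 14 arrays, by treatment; filled blue points are arrays of set b, open orange points arrays without the suffix, and short lines the means of the 2 arrays. Cxcl13 was at 492 and 495 with indomethacin, 1864 and 1478 with NS-398 and 152 and 227 with DMSO in set b, and under 100 on all arrays without the suffix.

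NS-398, at the same concentration and time, gave a different pattern. In set b 5 of the 7 chemokine probe sets rose and none fell, against 14.7% of all probe sets called. These were Cxcl13, whose mean signal was 8.82 times the DMSO mean, all 3 Cxcl12 probe sets, at 1.34 to 1.73 times DMSO, and Ccl2, at 1.35 times. The median log2 change of the 7 was 0.40, beside -0.01 for all probe sets. The indomethacin and NS-398 comparisons within set b share the same 2 DMSO arrays.

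Cxcl13 reached 1864 and 1478 on the NS-398 arrays, against 152 and 227 on the DMSO arrays of set b. Each NS-398 array was several times above each DMSO array. The log2 change was 2.85 ± 0.18 (limma adjusted p 8.41e-08). It was between 2.62 and 3.08 with any 1 array left out and called each time. In the model with 1 drug effect for both sets it was 1.28 ± 0.44 and not called (limma adjusted p 0.0630).

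Cxcl13 signals in the set without suffix were 29.5 and 10.7 with NS-398, against 36.4 and 34.9 with DMSO, and all were under the minimum of 100. No size of change is therefore given there, and the limma adjusted p was 0.323. The fitted NS-398 effect in set b exceeded that in the set without suffix by 3.16 ± 0.26 on the log2 scale (limma adjusted p 5.00e-06), but this compares a change with signals under the minimum, and its size followed the constant added to the signals (3.62 with 16 and 2.36 with 200, called with both). It made Cxcl13 the only one of the 7 probe sets called for this difference, against 6.09% of all probe sets. Cxcl13 also differed between the sets in the DMSO arrays alone, as given below, and the sets differed in Cdx2 and in the beta-actin ratio.

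For Cxcl12 the NS-398 arrays stood above the DMSO arrays in both sets. Probe set 1369633_at had 1366 and 1299.9 with NS-398, against 954 and 1042 with DMSO in set b. In the set without suffix it had 2124 and 2167 with NS-398, against 1374 and 1433 with DMSO. The log2 changes were 0.40 ± 0.09 in set b and 0.60 ± 0.09 in the set without suffix (limma adjusted p 0.00496 and 0.000298).

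The other Cxcl12 probe sets moved likewise. Probe set 1387655_at had 440.25 and 538 with NS-398, against 247 and 318 with DMSO in set b, and 906 and 738 with NS-398, against 505 and 547 with DMSO in the set without suffix. Probe set 1388583_at had 722 and 739.6 with NS-398, against 489 and 599.97 with DMSO in set b, and 1778 and 1598 with NS-398, against 978 and 1185 with DMSO in the set without suffix. In no probe set and in neither set did the groups overlap. Every NS-398 array lay above every DMSO array in 27.1% of all probe sets in set b and 28.1% in the set without suffix. The log2 changes of 1387655_at were 0.70 ± 0.14 and 0.59 ± 0.14 (limma adjusted p 0.00356 in set b and 0.0129 without suffix), and those of 1388583_at were 0.40 ± 0.11 and 0.62 ± 0.11 (limma adjusted p 0.0243 and 0.00179). In the set without suffix these 3 were the chemokine probe sets called, all higher, against 11.9% of all probe sets, with a median of 0.57 for the 7 beside -0.004 for all.

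The effect on Cxcl12 was not shown to differ between the sets: the differences of the NS-398 effects, set b minus the set without suffix, were -0.19, 0.10 and -0.22 (95% intervals -0.45 to 0.06, -0.32 to 0.53 and -0.56 to 0.11). Single arrays mattered for the calls in set b. Without DMSO array 1b none of the 3 passed (limma adjusted p 0.0679, 0.0647 and 0.255), without NS-398 array 2b neither 1387655_at (0.0529) nor 1388583_at (0.110) did, and without NS-398 array 1b 1388583_at did not (0.0754). In the set without suffix 1387655_at alone was lost, without DMSO array 1 (0.0942) or NS-398 array 1 (0.139). In the model with 1 NS-398 effect for both sets the changes were 0.50 ± 0.07, 0.64 ± 0.10 and 0.51 ± 0.08, with limma adjusted p of 2.24e-04, 5.42e-04 and 8.52e-04. The stromal marker Dcn lay the same way here too, at a mean of 2557 with NS-398, against 1671 with DMSO in set b, and 8937 with NS-398, against 4533 with DMSO in the set without suffix. Other fibroblast and smooth muscle markers did not all do so. Of 9 tested, 3 rose and 2 fell (Tagln and Col1a2) with NS-398 in set b, beside 14.7% of all probe sets called. In the set without suffix 2 rose and 3 fell (Col3a1, Col1a2 and Col1a1), beside 11.9% of all probe sets called. The part of Dcn in the Cxcl12 values was not tested.

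**Figure D2:**
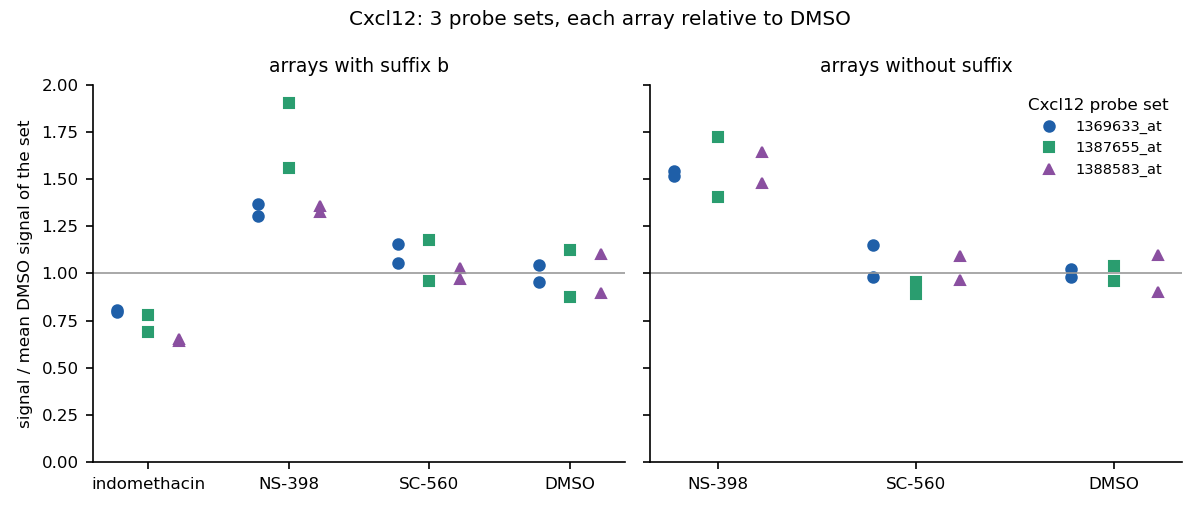
Signals of the 3 Cxcl12 probe sets on each array, divided by the mean DMSO signal of the same probe set and label set; symbols mark the probe sets and the grey line the DMSO mean. NS-398 arrays lay above 1 in both panels and indomethacin arrays below 1, with mean ratios of 1.34 to 1.73 for NS-398 in set b, 1.53 to 1.56 for NS-398 without the suffix and 0.648 to 0.802 for indomethacin.

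Ccl2 had 718 and 726 on the NS-398 arrays, against 577 and 494 on the DMSO arrays of set b. In the set without suffix it had 1368 and 1505 with NS-398, against 1721 and 1345 with DMSO, so that the groups overlapped there. The rise in set b was 0.40 ± 0.12 on the log2 scale (limma adjusted p 0.0369), and the change in the set without suffix was -0.08 (95% interval -0.34 to 0.18). The call in set b was lost with any 1 array left out (limma adjusted p 0.0553 to 0.240), and the change was 0.16 (0.349) in the model with 1 NS-398 effect for both sets. The difference between the 2 effects was 0.48 (95% interval 0.12 to 0.85) and did not pass over all probe sets (limma adjusted p 0.114).

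Cxcl1 did not pass in either set. It had 5862 and 4951 with NS-398, against 5626 and 6394 with DMSO in set b, and 12513 and 13079 with NS-398, against 11544 and 10188 with DMSO in the set without suffix. The groups overlapped in set b but not in the set without suffix. The log2 changes were -0.15 (95% interval -0.40 to 0.09) and 0.24 (95% interval -0.01 to 0.48).

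Cxcl10 had 134 and 104 with NS-398, against 94.99 and 165 with DMSO in set b. It had 225 and 178 with NS-398, against 103 and 136 with DMSO in the set without suffix. The groups overlapped in set b and stood apart in the other set. The log2 changes were -0.07 (95% interval -0.49 to 0.36) in set b and 0.57 (95% interval 0.14 to 1.00) in the set without suffix, the second with a limma adjusted p of 0.0781.

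**Figure D3:**
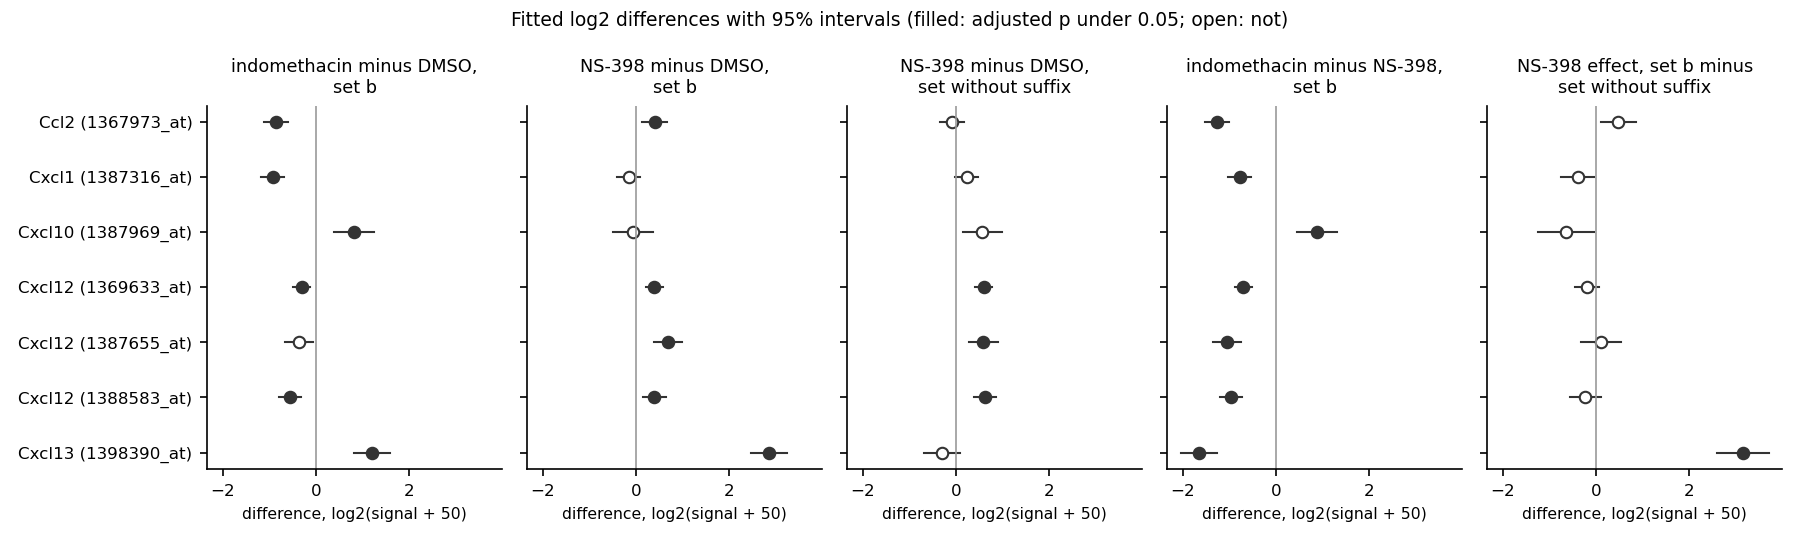
Fitted differences in log2(signal + 50), with 95% intervals, for the 7 chemokine probe sets in 5 comparisons on a shared axis; filled points had a limma adjusted p under 0.05. All 7 were called between indomethacin and NS-398, with Cxcl10 to the right of 0 and the other 6 to the left, and Cxcl13 alone was called for a difference of the NS-398 effect between the sets; its signals without the suffix were under 100.

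Set against each other at 100 µM and 72 h within set b, indomethacin and NS-398 differed in all 7 chemokine probe sets, with 6 lower and 1 higher under indomethacin, against 9.99% of all probe sets called. The median log2 difference was -0.95, beside 0.01 for all probe sets. No indomethacin array overlapped an NS-398 array in any of the 7, as in 52.0% of all probe sets. The Ccl2 signal of 263 and 281 with indomethacin stood against 718 and 726 with NS-398, a log2 difference of -1.26 ± 0.12 (limma adjusted p 1.04e-05). For Cxcl1 the difference was -0.77 ± 0.12 (limma adjusted p 0.000506), and for the 3 Cxcl12 probe sets it was -0.70, -1.06 and -0.95 (limma adjusted p 8.64e-05, 0.000196 and 5.86e-05).

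Cxcl13, higher than DMSO under both drugs in set b, was lower with indomethacin than with NS-398, at 0.295 of its mean signal (log2 difference -1.65 ± 0.18, limma adjusted p 3.61e-05). In the model with 1 drug effect for both sets this difference was -0.66 and not called (limma adjusted p 0.569). Cxcl10 was the one gene higher with indomethacin, at 2.20 times the NS-398 mean (log2 difference 0.88 ± 0.20, limma adjusted p 0.0109). That call was lost without indomethacin array 1b (0.111) or NS-398 array 2b (0.0887). In set b the mean Ccl2 signals were 722 ± 5.8 with NS-398, 272 ± 12 with indomethacin and 535 ± 58 with DMSO (SD, n = 2 each), so that DMSO lay between the drugs without overlap. From high to low, the order for Cxcl13 was NS-398 (1671 ± 273), indomethacin (493 ± 2.0) and DMSO (189 ± 53), with no overlap between neighbours. Lack of overlap was common with 2 arrays per group. It held for 53.1% of all probe sets between indomethacin and DMSO and for 52.0% between indomethacin and NS-398. For these genes and those below, the share of all probe sets with every group apart was not computed.

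For Cxcl1 the means in set b were 5406 ± 644 with NS-398, 3131 ± 26 with indomethacin and 6010 ± 543 with DMSO, where the arrays of NS-398 and DMSO overlapped and those of indomethacin lay below. For Cxcl10 they were 262 ± 43 with indomethacin, 119 ± 21 with NS-398 and 130.1 ± 49.6 with DMSO, where indomethacin lay above and the others overlapped. Cxcl12, by probe set 1369633_at, was at 1333 ± 46 with NS-398, 799.9 ± 6.5 with indomethacin and 998 ± 63 with DMSO, with no overlap between any of the groups. SC-560 was applied at another concentration, so its values are set beside DMSO alone.

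SC-560, at a concentration of 1 µM, changed none of the chemokine probe sets in either set in limma. In set b the means were 479 ± 58 for Ccl2 with SC-560, against 535 ± 58 with DMSO, and 5416 ± 765 for Cxcl1 with SC-560, against 6010 ± 543 with DMSO, and the arrays of each pair overlapped. Cxcl10 was at 110 ± 11 with SC-560, against 130.1 ± 49.6 with DMSO, with overlap. Cxcl12 1369633_at was at 1101 ± 71 with SC-560, against 998 ± 63 with DMSO (log2 change 0.14, 95% interval -0.05 to 0.32). At an unadjusted p under 0.05 there was none in set b and 1 in the set without suffix, Ccl2 with 1112 and 1293 on the SC-560 arrays, against 1721 and 1345 on the DMSO arrays (log2 change -0.33, 95% interval -0.59 to -0.07). The shares of all probe sets called were 0.0228% in set b and 0.0114% in the set without suffix, or 4 and 2 probe sets, with 1781 and 1134 at an unadjusted p under 0.05. Cxcl13 in set b had 274 and 244 with SC-560, against 152 and 227 with DMSO (log2 change 0.38, 95% interval -0.01 to 0.77). The medians of the 7 were 0.005 in set b and 0.04 in the set without suffix, beside 0.010 and 0.005 for all probe sets.

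The label sets differed in these genes without any drug. On the DMSO arrays 6 of the 7 probe sets differed between set b and the set without suffix, 1 higher and 5 lower in set b, against 41.9% of all probe sets called. Ccl2 was at 577 and 494 in set b, against 1721 and 1345 in the set without suffix (log2 difference -1.43 ± 0.12, limma adjusted p 8.73e-08). Cxcl1 differed by -0.85 ± 0.12 (limma adjusted p 1.80e-05) and the Cxcl12 probe sets by -0.47, -0.80 and -0.93. Cxcl13 was at 152 and 227 in set b, against 36.4 and 34.9 in the set without suffix. As the second pair was under the minimum of 100, the difference is given as a bound. Set b was at least 1.86-fold higher, by the mean log2 signals and with the dim arrays taken at 100. This bound was not tested. The fitted log2 difference, from the signals as they were, was 1.47 (limma adjusted p 6.88e-06). It followed the constant added to the signals, at 1.97 with 16 and 0.72 with 200, and was called with both. Cxcl10 did not pass (0.07, 95% interval -0.36 to 0.49). For Ccl2 this difference between DMSO arrays was larger than the change under either drug.

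Across the 14 arrays, after the mean of each label set was taken off, the 3 Cxcl12 probe sets correlated with each other at r of 0.90 to 0.96. Ccl2 and Cxcl1 correlated at 0.80, and Ccl2 and Cxcl10 at -0.70, while Cxcl13 had r of -0.14 to 0.46 with the others. These values describe the arrays, which share their scaling and treatment groups. The named genes whose pattern was most like each chemokine gene by the same measure were St6gal1, Nfkbiz and Fbxw7 for Ccl2 (r of 0.91 to 0.93) and Rbm38, Fam89b and Zfp422 for Cxcl1 (0.91 to 0.93). They were Thrb, Septin10 and Slc7a1 for Cxcl10 (0.90 to 0.97), Meis2, Slc44a1 and Slc25a33 for Cxcl12 (0.93 to 0.94) and Ldha, Acss3 and Ugp2 for Cxcl13 (0.95 to 0.96). Mean signals of Acss3 were under 100, at 64.1 in set b and 2.30 in the set without suffix. That of Slc7a1 was 64.7 in the set without suffix. Cxcl13 itself was under 100 on all arrays without the suffix, so its r values include signals under the minimum. Nfkbiz, the second of those listed for Ccl2, encodes a nuclear inhibitor-of-kappa B protein that acts on secondary inflammatory genes.

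Other chemokine ligands were mostly at background: of 26 on the array 6 were tested. With indomethacin in set b 1 fell and none rose, the neutrophil attractant Cxcl2, at a mean of 69.5, against 192 with DMSO (limma adjusted p 0.0123, with the indomethacin mean under 100), beside 7.10% of all probe sets called. With NS-398 in set b Cxcl16, a transmembrane chemokine for T cells, rose by 0.38 ± 0.10 (limma adjusted p 0.0152), and Cxcl3, another neutrophil attractant, fell, at a mean of 272, against 562 with DMSO (-0.93 ± 0.21, limma adjusted p 0.00788). In the set without suffix Cxcl3 was at 0.65 ± 0.21 with NS-398 (limma adjusted p 0.0578), and its effects differed between the sets (-1.58 ± 0.30, limma adjusted p 0.00566). The Cxcl3 probe set carries an x in its name, which marks probes that may match related transcripts. In the set without suffix Ccl20, which attracts cells through Ccr6, passed as higher with NS-398 at mean signals of 62.4, against 17.3 with DMSO, both under 100, so that no size is given. Between indomethacin and NS-398 the calls were 3 lower, Cxcl16, Cxcl2 and the monocyte attractant Ccl7, and none higher. With indomethacin the means of Cxcl2 (69.5) and Ccl7 (52.8) were under 100. Of all probe sets, 9.99% were called between these drugs, 14.7% with NS-398 in set b and 11.9% with NS-398 in the set without suffix.

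Of 17 receptor genes on the array 2 were tested, the Cxcl13 receptor Cxcr5 and the Cxcl12-binding Ackr3. The receptors Ccr2, Cxcr2, Cxcr3 and Cxcr4 did not pass the filter, and their highest signals on any array were 13.9 for Ccr2, 34.4 for Cxcr2, 104 for Cxcr3 and 45.4 among 3 probe sets of Cxcr4. Cxcr5 was at means of 318 with indomethacin, 305 with NS-398 and 242 with DMSO in set b, and 238 with NS-398, against 227 with DMSO in the set without suffix, and was not called in any drug comparison. Ackr3 was bright, at a mean of 8977 with NS-398, 7187 with indomethacin and 7267 with DMSO in set b. It rose with NS-398 in set b (log2 change 0.30 ± 0.05, limma adjusted p 0.00038), and in the set without suffix it was at 0.12 ± 0.05 (limma adjusted p 0.111).

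Of 15 tested subunits and regulators of NF-kB, none rose and 3 fell with indomethacin in set b, beside 7.10% of all probe sets called, while 3 rose and none fell with NS-398, a share near the 14.7% of all probe sets. The 3 that fell were Nfkbiz (-0.83 ± 0.11, limma adjusted p 0.000266), Nfkbia, the classical inhibitor of NF-kB (-0.51 ± 0.11, limma adjusted p 0.00964), and Tnfaip3, a ubiquitin-editing inhibitor of the pathway (-0.94 ± 0.19, limma adjusted p 0.00764). Nfkbia was at a mean of 2523 with indomethacin, 5868 with NS-398 and 3622 with DMSO in set b. It rose with NS-398 in both sets (0.69 ± 0.11 and 0.70 ± 0.11), together with Nfkbiz and Relb in set b and Tnfaip3 in the set without suffix. Relb, a subunit of the alternative pathway, and Tnip1, which binds Tnfaip3, fell with NS-398 in the set without suffix (-0.55 ± 0.17 and -0.34 ± 0.08), and the Relb effect differed between the sets (1.09 ± 0.25, limma adjusted p 0.0145). Nfkbia, Nfkbiz and Tnfaip3 are themselves known as targets of NF-kB. The medians of the 15 were -0.02 with indomethacin and 0.07 with NS-398 in set b and -0.02 with NS-398 without the suffix. In the last of these 4 of the 15 were called, 2 in each direction, beside 11.9% of all probe sets, and 7 had an unadjusted p under 0.05.

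**Figure D4:**
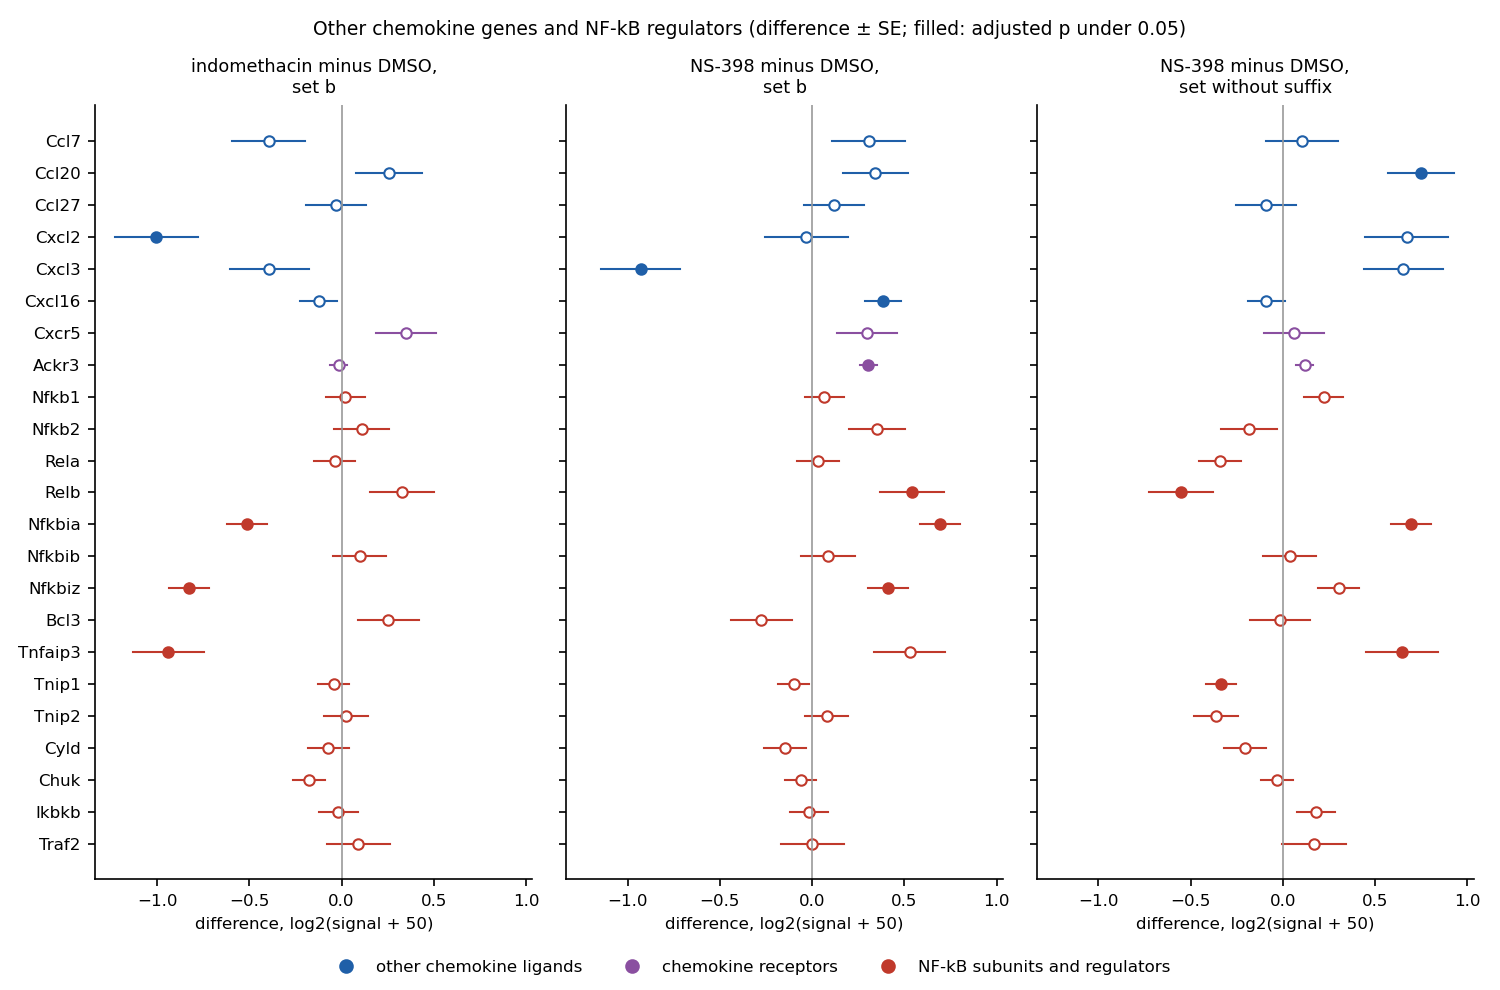
Fitted differences in log2(signal + 50) with standard errors for the tested other chemokine ligands (blue), chemokine receptors (purple) and NF-kB genes (red), for indomethacin and NS-398 in set b and NS-398 in the set without suffix; filled points had a limma adjusted p under 0.05. Nfkbia, Nfkbiz and Tnfaip3, of the 15 NF-kB genes, lay left of 0 with indomethacin and right of 0 with NS-398 in both sets. With NS-398, Tnfaip3 in set b and Nfkbiz without the suffix were not called (limma adjusted p 0.0797 and 0.0857). Relb lay right of 0 with NS-398 in set b and left of 0 without the suffix.

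Interferon-stimulated genes were listed beside Cxcl10, which interferons induce. None of 16 tested was called with indomethacin in set b in limma (1 at an unadjusted p under 0.05), beside 7.10% of all probe sets called. Among 16 genes a count of none is near that share. Their median was -0.05. Cxcl10 rose in this comparison, and a part of interferon in that rise was not tested. With NS-398 in set b 2 rose, the antiviral GTPase Mx1 (1.26 ± 0.25, limma adjusted p 0.00249) and the immunoproteasome subunit Psmb9, and none fell, a share no higher than the 14.7% of all probe sets. With NS-398 in the set without suffix 2 rose, Isg15 and Irf1, and 3 fell, Gbp2, Irf7 and Psmb9, beside 11.9% of all probe sets called.

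Among 11 tested mediators of inflammation outside the chemokines, none rose and 2 fell with indomethacin in set b, beside 7.10% of all probe sets called. The 2 were Ptgs2, which encodes the inducible cyclooxygenase (-0.40 ± 0.10, limma adjusted p 0.0213), and the alarmin Il33 (-0.42 ± 0.11, limma adjusted p 0.0264). With NS-398 in set b 1 rose and 2 fell, beside 14.7% of all probe sets called. The cytokine Il6 rose, at a mean of 130, against 33.7 with DMSO, the latter under 100, and Il33 and Il18 fell. Il33 went opposite ways in the sets under NS-398, at -1.33 ± 0.11 in set b and 1.04 ± 0.11 in the set without suffix (limma adjusted p 1.34e-06 and 1.52e-05). Csf1, Icam1 and Vcam1 also rose with NS-398 in the set without suffix, and Il18 and Il1r1 fell. In that set 4 of the 11 thus rose and 2 fell, beside 11.9% of all probe sets called.

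Factors that control the decay of chemokine transcripts were all measured. Of 8, 3 rose with NS-398 in set b, the decay-promoting zinc-finger proteins Zfp36 (0.61 ± 0.09), Zfp36l1 (0.36 ± 0.05) and Zfp36l2 (0.53 ± 0.08), and 1 fell, Hnrnpd, which binds AU-rich transcripts (-0.39 ± 0.06), with limma adjusted p of 0.000112 to 0.000426. Of all probe sets, 14.7% were called in that comparison. Zfp36l1 and Zfp36l2 rose with NS-398 in the set without suffix as well (0.26 ± 0.05 and 0.44 ± 0.08), beside 11.9% of all probe sets called. With indomethacin in set b 1 of 8 rose, beside 7.10% of all probe sets called. It was Zfp36l1, by 0.16 ± 0.05 (limma adjusted p 0.0495).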

How the data were processed

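The authors deposited linear signal intensities for 31099 probe sets on 14 one-colour arrays, scaled per the labels to a target of 500. Which software summarised the probes is not given in the sources used here. Gene symbols came from GEO's annotation of the platform and were brought up to date through RefSeq identifiers (GRCr8). A single symbol belonged to 20832 probe sets, several to 436, and 9831 were unlisted. The 57 control probe sets were left out, and probe sets with a signal of at least 100 on at least 2 arrays were tested (17515, with 9840 named genes).

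The deposited intensities were transformed as log2(signal + 50), without further normalization, and fitted with limma 3.58.1 (R 4.3.3). Each of the 7 combinations of group and label set was given its own mean, with an intensity trend in the empirical Bayes step. P-values were Benjamini-Hochberg adjusted over all probe sets tested in each comparison and called under 0.05; the number of arrays limits the precision. Other genes came from lists, with 1 probe set per gene, the one with the highest mean log2 signal. Those named were called in an indomethacin or NS-398 comparison, at most 5 per list and direction; the receptors of the 5 chemokines were named whatever their signal. Likeness was ranked by Pearson's r over the 14 arrays, with 3 named genes for each member. The chemokine genes, lists and tests were chosen with earlier results of these data known.

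On data simulated with 100 changed probe sets of each size among 17515, a log2 change of 0.5 was recovered for 42%, 43% and 40% in the comparisons of indomethacin in set b, NS-398 in set b and NS-398 without the suffix, and a change of 1 for 87%, 87% and 86%. False calls numbered 5, 9 and 10. Far fewer probe sets were changed there than were called in the data (1243, 2574 and 2091). The adjustment was therefore stricter, and these shares do not give the recovery in the data. Promoters came from a RefSeq table that held 4 of the 5 genes; Ccl2 is named only. No 2 arrays held identical values.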

Additional observations from a re-analysis of the deposited data

Results flagged for a closer look

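The fitted effect of NS-398 on Cxcl13 in set b exceeded that in the set without suffix by 3.16 ± 0.26 on the log2 scale (limma adjusted p 5.00e-06). Cxcl13 passed the filter through set b alone, and this sets a change against signals under the minimum. The value therefore cannot show how far the effects differed. It was 2.85 ± 0.18 in set b, where both NS-398 arrays were above both DMSO arrays, while all signals in the set without suffix were under 100, so that no size of change is given there. The difference lay between 2.93 and 3.39 with any 1 array left out and between 2.36 and 3.62 under the other settings, with both ends from the constant added to the signals (200 and 16).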

How the results depend on the processing

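With 2 arrays per group and set, single arrays decide several calls. The 6 chemokine probe sets called for indomethacin in set b became 3 to 4 with any 1 array left out (3 without indomethacin array 2b). The 5 called for NS-398 in set b became 1 to 4 (1 without DMSO array 1b, 2 without NS-398 array 2b, 3 without NS-398 array 1b), 3 without an intensity trend and 3 in the additive model of group and label set. Over all probe sets the calls with 1 array left out were 305 to 773 for indomethacin in set b, 1151 to 1758 for NS-398 in set b, 789 to 1010 between those drugs, 833 to 1113 for NS-398 without the suffix, 504 to 860 for the difference of its effects and 1 to 15 for SC-560 in set b. Without an intensity trend they were 566 for indomethacin, 1057 between the drugs, 1393 for NS-398 without the suffix and 512 for the difference of effects. With no filter they were 778 for indomethacin and 699 for the difference of effects. In the additive model they were 572 for indomethacin, 954 between the drugs and 0 for SC-560 in both sets, which had 8 in set b after quantile normalization.

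The additive model fits 1 NS-398 effect for both sets, so it cannot show a change of direction within a set. Its value had the opposite sign to the separate change in set b for Cxcl1 (0.0419) and Cxcl10 (0.251). For Ccl2 (0.160) and Cxcl13 (1.28) it had the opposite sign to the separate change without the suffix, where all Cxcl13 signals were under 100. None of these separate changes was called. With 1 array left out the ranges crossed 0 for NS-398 on Ccl2 without the suffix (-0.254 to 0.0900), NS-398 on Cxcl10 in set b (-0.353 to 0.217), Cxcl10 between the sets in DMSO (-0.219 to 0.351) and the difference of effects on Cxcl12 1387655_at (-0.0495 to 0.259). The cause of these crossings was not tested. Array digits did not pair the samples: differences between arrays 1 and 2 correlated at -0.078 to 0.063. With a replicate block on the digit, 5 chemokine probe sets were called for indomethacin in set b, without Cxcl12 1369633_at (limma adjusted p 0.0696), and 4 for NS-398 in set b, without Ccl2 (0.0567); no other chemokine call changed.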
